A study of Homo sapiens with 12 samples.

Results

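The genes described here encode the machinery of the replication fork. The list held 35 genes, chosen by function: the sliding clamp and its loaders, the replicative DNA polymerases and primase, the single-strand binding protein, the enzymes that join Okazaki fragments, proteins that protect the fork, and the pair that copies DNA methylation behind it. Each gene was represented by 1 Affymetrix probe set annotated to it alone, the one with the highest mean, and was kept if its log2 signal was at least 5 on at least 2 of the 12 arrays. This kept 32 of the 35 members, among 9130 genes kept by the same rule. ATAD5, RNASEH2B and CLSPN were not kept. Their highest log2 signals on any array were 2.90, 3.64 and 5.18.

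The samples were HCT116 cells, an established human colorectal cancer line, arrested by a double thymidine block. The block was 2 mM thymidine for 19 h, normal medium for 9 h and thymidine again for 16 h, and all 12 samples went through it. After release the cells were given DMSO, the vehicle, and collected at once, every 2 h up to 6 h and then hourly up to 10 h, or were given nocodazole and collected hourly from 7 to 10 h. Nocodazole stops microtubules from assembling, so that treated cells arrest in mitosis. The label gives the nocodazole dose as 0.1 mg/ml. Each condition was 1 array (8 with DMSO and 4 with nocodazole), so errors and p-values rest on the spread between neighbouring times and not on replicate cultures, and 1 cell line was studied.

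At a moving fork the helicase parts the strands and DNA polymerase alpha with primase lays down short primers. A clamp loader of the RFC family closes the PCNA ring around the primed DNA, which tethers polymerase delta on the lagging strand, while polymerase epsilon works on the leading strand. A large part of these genes is transcribed as cells pass from G1 into S phase, in part through E2F transcription factors.

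Sequence motifs resembling E2F sites were common around the transcription starts of the members' genes. RefSeq promoter windows (GRCh38.p14, with 250 bases before and 50 bases from the transcription start) were found for 29 of the 35 members. ATAD5, DSCC1, DNA2, POLD3, RPA2 and RPA3 had none in the table. On either strand, 22 of the 29 genes (75.9%) held TTCGCGC (in 7 genes), TTGGCGC (in 6) or TTCCCGC (in 13), against 13.1% of 27305 genes with such windows. In RFC1, RFC5, TIMELESS, POLE3 and WDHD1 these motifs lay only after the start. The forms with 1 more leading T, which contain the shorter ones, were found in 3 members (TTTCGCGC), 4 members (TTTGGCGC) and 6 members (TTTCCCGC), and in 0.63%, 0.795% and 1.98% of the same 27305 genes. CCAAT was in 16 members (55.2%, against 39.7% of genes), TTTGAA in POLE3 alone and TTCGAA in none.

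The 120 bases before the start are shown for the 4 members whose signal fell from 0 to 4 h to 6 to 8 h, and for RFC3, a clamp loader subunit whose difference did not pass the test. They run 5′ to 3′ on the strand of the gene, and capitals mark a motif of the E2F type on either strand. The positions were chr20:5126623-5126742 (minus strand) for PCNA, chr3:186806483-186806602 (minus) for RFC4, chr11:65261842-65261961 (plus) for POLA2, chr11:61792791-61792910 (plus) for FEN1 and chr13:33818029-33818148 (plus) for RFC3.
PCNA: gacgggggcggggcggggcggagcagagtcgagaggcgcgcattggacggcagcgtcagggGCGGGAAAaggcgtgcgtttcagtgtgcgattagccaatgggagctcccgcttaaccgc
RFC4: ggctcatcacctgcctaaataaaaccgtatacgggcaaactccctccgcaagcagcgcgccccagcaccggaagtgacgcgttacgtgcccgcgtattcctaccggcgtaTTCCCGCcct
POLA2: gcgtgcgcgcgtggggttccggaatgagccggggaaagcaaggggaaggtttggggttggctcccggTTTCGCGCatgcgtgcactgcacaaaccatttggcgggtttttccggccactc
FEN1: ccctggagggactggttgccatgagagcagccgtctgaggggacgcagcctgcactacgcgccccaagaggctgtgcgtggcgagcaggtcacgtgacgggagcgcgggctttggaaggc
RFC3: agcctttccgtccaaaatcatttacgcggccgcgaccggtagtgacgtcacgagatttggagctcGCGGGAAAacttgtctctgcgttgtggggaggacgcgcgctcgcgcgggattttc
The motif began at -59 in PCNA, -10 in RFC4, -53 in POLA2 and -55 in RFC3, counted from the start, and these letters were not in the FEN1 window. PCNA and RFC3 carried the same 8 letters, on the strand opposite to the gene, at nearly the same distance from the start. Among kept members with a window, 6 of 7 whose DMSO course passed the test held a motif, and so did 15 of 20 others, all 4 polymerase epsilon subunits among them. A match describes letters and is not evidence of a bound site.

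Some facts of the whole set of arrays bear on the values below. The median log2 signal of the kept probe sets was between 8.59 and 9.13 on the 8 DMSO arrays and 8.90 and 8.99 on the nocodazole arrays at 7 and 8 h, and was 8.39 and 8.28 on those at 9 and 10 h. Each comparison was therefore run as deposited and after quantile normalization, which gives all arrays the same distribution. The mean log2 signal of the 18S rRNA control probe sets was 8.32 on the DMSO 4 h array and at most 4.05 on the other 11 arrays. All 5 epithelial markers were kept, with summed log2 signals of 66.06 to 68.22 with DMSO and 66.67 to 67.77 with nocodazole, and of 10 markers of other cell types only COL1A1 was kept. For stage, 12 of 16 mitotic genes rose between the 0 to 4 h and the 6 to 8 h window, where 5.41% of all genes rose, and the median log2 difference of the 16 was 1.26. In bulk RNA, fewer cells that express a gene and less of its RNA per cell cannot be told apart.

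The median fork gene was highest at release and lowest at 8 h with DMSO (at 7 and 8 h after quantile normalization), and its value at 10 h was near that at release as deposited and not after quantile normalization. Relative to its own mean over the 8 DMSO arrays, the median member was 0.23 at 0 h, 0.06 at 2 h, -0.02 at 4 h, -0.06 at 6 h, -0.05 at 7 h, -0.23 at 8 h, -0.15 at 9 h and 0.17 at 10 h on the log2 scale. The median of all genes on the same arrays was between -0.07 and 0.08 up to 9 h and 0.17 at 10 h. After quantile normalization the median member was 0.30 at 0 h, -0.17 at 7 and 8 h and -0.10 at 10 h, so the level at 10 h depended on the scale. As deposited the highest DMSO value was at 0 or 2 h for 14 of 32 members (43.8%) and for 23.5% of all genes, and at 10 h for 13 members (40.6%) and for 38.6% of all genes. After quantile normalization it was at 0 or 2 h for 20 members (62.5%, against 38.2% of all genes) and at 10 h for 5 (15.6%, against 14.3%). The lowest value as deposited was at 7 to 9 h for 19 members (59.4%) and for 40.3% of all genes.

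Over the DMSO course, fitted with a spline of time, 9 of 32 members passed the test (adjusted p under 0.05), against a background of 21.8% of all genes. These were PCNA, RFC2, RFC4, RFC5, DSCC1, POLA2, RPA3, FEN1 and TIPIN. After quantile normalization 21 members passed, where 40.1% of all genes did, and all 9 were among them. As deposited 5 members passed without the DMSO array at 0, 8 or 9 h. The median span of the members' fitted curves, each gene fitted by itself, was 0.56 as deposited, against 0.55 over all genes. From 0 to 4 h to 6 to 8 h, 4 members fell and 0 rose as deposited, and 9 fell and 0 rose after quantile normalization. Falling genes made up 0.635% of all genes as deposited and 4.6% after quantile normalization. The median member difference was -0.19 (all genes 0.06) as deposited and -0.32 (all genes -0.10) after quantile normalization. The 4 calls as deposited did not hold without the DMSO array at 0, 2, 7 or 8 h, where 0 members passed. For this and the other counts without an array, the share of all genes that passed is not given here. Such counts therefore describe the calls alone. Without the 9 or 10 h array 1 member (POLA2) passed, and without the 6 h array 7 did.

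**Figure D1:**
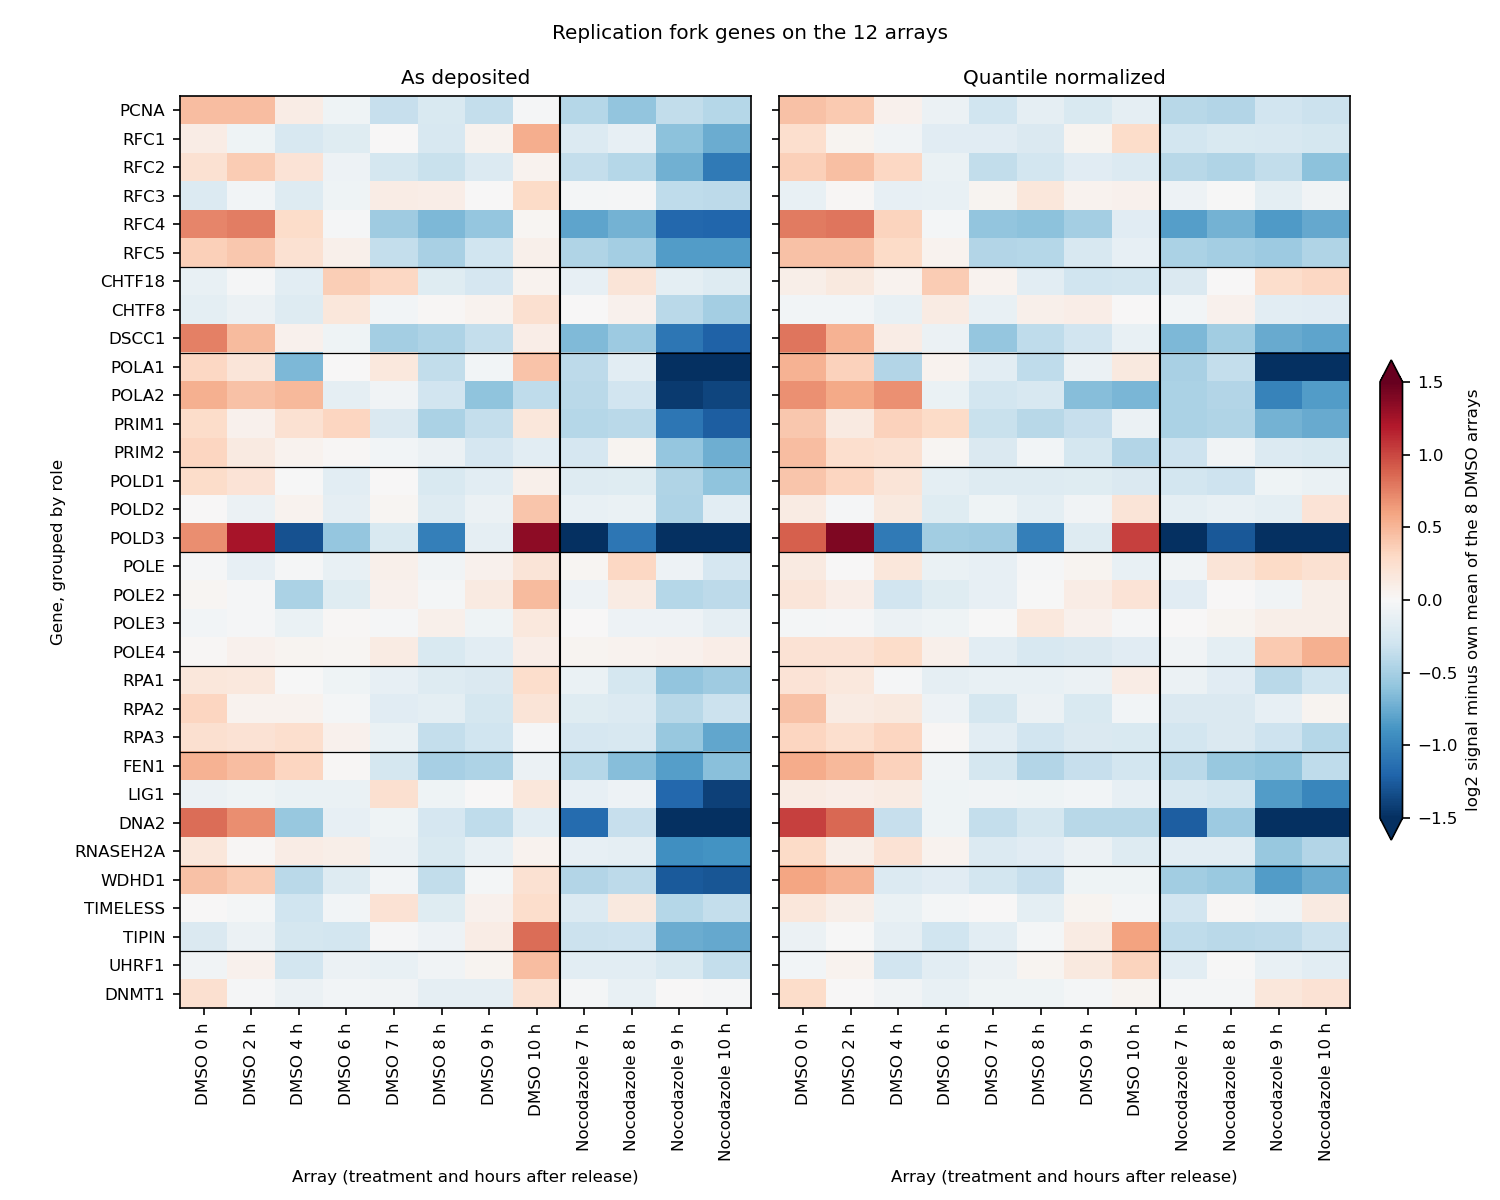
Log2 signal of the 32 kept members (rows, by role) on the 12 arrays (columns), minus each gene's mean over the 8 DMSO arrays, as deposited and quantile normalized. RFC2, RFC4, RFC5, DSCC1, POLA2 and FEN1 pass from red at 0 and 2 h to blue at 7 to 9 h with DMSO, and the polymerase epsilon rows stay pale. Colour is capped at 1.5 in either direction, which POLD3, POLA1 and DNA2 exceed.

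In the clamp and its loader, PCNA and RFC4 fell from 0 to 4 h to 6 to 8 h on both scales, RFC2 and RFC5 fell after quantile normalization, and RFC1 and RFC3 passed on neither. PCNA is the ring that holds the polymerases on DNA, and RFC1 to RFC5 form the complex that opens and closes it. With DMSO, PCNA had a log2 signal of 14.48 at 0 h, 14.48 at 2 h, 14.13 at 4 h, 13.96 at 6 h, 13.68 at 7 h, 13.79 at 8 h, 13.66 at 9 h and 14.00 at 10 h. With nocodazole it was 13.59 at 7 h, 13.43 at 8 h, 13.65 at 9 h and 13.60 at 10 h, and all lists of log2 signals below follow this order of times. Every value up to 4 h was above every value from 6 to 8 h, and the difference of the means was -0.55 ± 0.13 (SE, adjusted p = 0.049 as deposited and 0.030 after quantile normalization).

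RFC4, 1 of the small subunits of the loader, had the largest fall among the members that passed. Its log2 signals over the same 8 DMSO times were 12.40, 12.44, 11.95, 11.66, 11.14, 11.00, 11.09 and 11.70, and over the 4 nocodazole times 10.88, 10.96, 10.49 and 10.48. The difference between the windows was -1.0 ± 0.23 (SE, adjusted p = 0.0414), and -1.05 ± 0.19 (SE, adjusted p = 0.0207) after quantile normalization. The 10 h value lay between the values at 4 and 6 h, while all 4 nocodazole values lay below all 8 DMSO values.

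RFC2 and RFC5, the small subunits beside it, had smaller differences. RFC2 was at 11.20, 11.35, 11.18, 10.90, 10.71, 10.64, 10.77 and 11.03 with DMSO and at 10.61, 10.55, 10.25 and 9.91 with nocodazole. RFC5 was at 11.93, 11.98, 11.80, 11.65, 11.21, 11.09, 11.27 and 11.65 with DMSO and at 11.12, 11.06, 10.73 and 10.73 with nocodazole. Both passed the test of the course (adjusted p = 0.021 and 0.0144), and in both the 0 to 4 h values lay above the 6 to 8 h values. The window difference was -0.49 ± 0.13 (SE, adjusted p = 0.0555) for RFC2, and -0.62 ± 0.10 (SE, adjusted p = 0.0184) after quantile normalization. That of RFC5 was -0.59 ± 0.17 (SE, adjusted p = 0.0744), and -0.66 ± 0.13 (SE, adjusted p = 0.0262) after quantile normalization. As deposited RFC2 also passed with a minimum log2 signal of 7 in place of 5, and both passed without the 6 h array. A further probe set of RFC5 differed by -0.60 between the windows and another by -0.05, so the probe sets of this gene do not all show the fall.

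RFC3 and RFC1 gave other values. RFC3 had DMSO log2 signals of 11.30, 11.47, 11.31, 11.44, 11.62, 11.61, 11.51 and 11.80, and nocodazole signals of 11.48, 11.49, 11.13 and 11.12. Its lowest DMSO value was at 0 h, and its window difference was 0.20 ± 0.12 (SE, adjusted p = 0.33). Its other kept probe set was 0.73 higher at 6 to 8 h than at 0 to 4 h, and with the mean of both its course passed the test as deposited. RFC1, the large subunit, was at 10.13, 9.96, 9.78, 9.84, 10.03, 9.78, 10.07 and 10.57 with DMSO and at 9.82, 9.90, 9.41 and 9.28 with nocodazole, and its window difference was -0.08 ± 0.17 (SE, adjusted p = 0.809). Its course passed the test after quantile normalization (adjusted p = 0.025) and not as deposited. The RFC1 probe set is of a type (_x_at) that may also bind other transcripts.

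Because the small subunits were measured on the same arrays, their difference within an array does not depend on array-wide shifts that act on them alike. This description was chosen after the values were seen and was not tested. RFC4 minus RFC3 was 1.10, 0.97, 0.64, 0.22, -0.48, -0.62, -0.42 and -0.09 from 0 to 10 h with DMSO, and between -0.64 and -0.53 on the 4 nocodazole arrays. RFC5 minus RFC3 went from 0.63 at 0 h to -0.53 at 8 h and RFC2 minus RFC3 from -0.10 to -0.97. All 3 differences were lower on every array from 6 h on than on any array up to 4 h. The nocodazole arrays at 9 and 10 h, which stand apart in their median signal, lay with those at 7 and 8 h for RFC4 and RFC5.

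**Figure D2:**
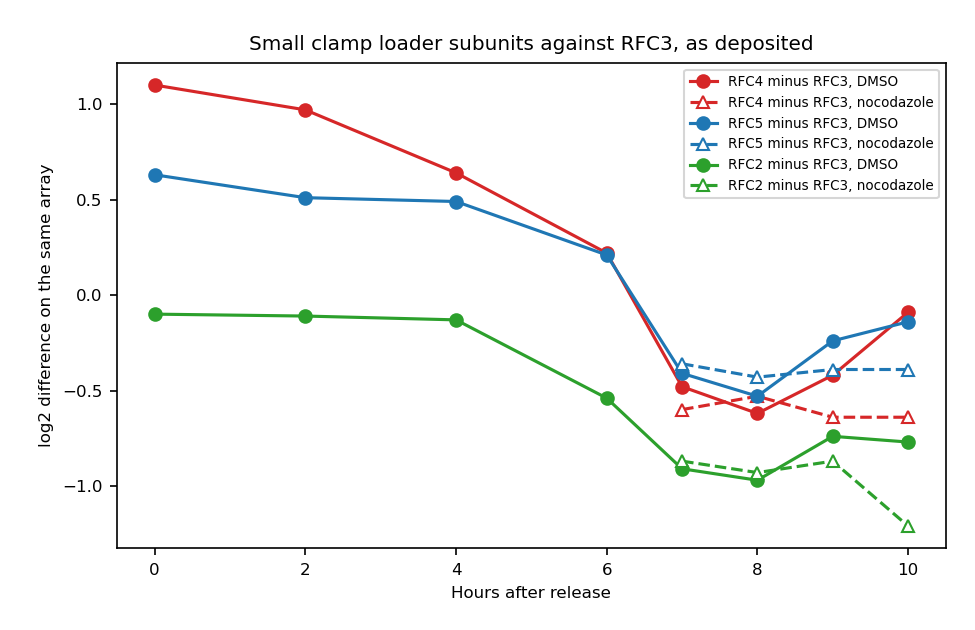
Difference in log2 signal between RFC4, RFC5 or RFC2 and RFC3 on the same array (vertical axis) against hours after release (horizontal axis), as deposited, with 1 array per point. The 3 lines drop between 4 and 8 h with DMSO, RFC4 from 0.64 to -0.62, and the nocodazole points at 7 to 10 h stay at the low level. The values compare probe sets over time and do not give the ratio of the transcripts.

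In the alternative clamp loader, DSCC1 changed over the DMSO course, and CHTF18 and CHTF8 did not pass the test. These 3 proteins form the CTF18 complex with the small RFC subunits, and the complex loads PCNA for sister chromatid cohesion. DSCC1 was at 12.46, 12.18, 11.77, 11.64, 11.19, 11.24, 11.34 and 11.80 with DMSO and at 11.04, 11.16, 10.62 and 10.49 with nocodazole. It was highest at 0 h and lower at each time up to 7 h, and its course passed the test on both scales (adjusted p = 0.00517 and 0.000338). The window difference was -0.78 ± 0.21 (SE, adjusted p = 0.0623) as deposited and -0.83 ± 0.18 (SE, adjusted p = 0.0302) after quantile normalization. As deposited it passed with a minimum of 7 and without the 4 or the 6 h array.

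CHTF18 was at 8.60, 8.69, 8.55, 9.08, 9.02, 8.53, 8.46 and 8.76 with DMSO and at 8.59, 8.90, 8.56 and 8.52 with nocodazole, which gave no course that passed the test on either scale. CHTF8 stayed between 11.21 and 11.64 on the DMSO arrays and was the 1 member whose 0 to 4 h values all lay below its 6 to 8 h values as deposited, as did those of 20.8% of all genes. The difference was 0.19 ± 0.11 (SE, adjusted p = 0.297) and the windows overlapped after quantile normalization. ATAD5, which unloads PCNA, was among the genes not kept.

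In the primer-making complex the second subunit of polymerase alpha, POLA2, fell from 0 to 4 h to 6 to 8 h, and its 9 and 10 h values were the lowest of the DMSO course. This regulatory subunit was at 9.88, 9.79, 9.84, 9.22, 9.30, 9.07, 8.75 and 8.97 with DMSO and at 8.95, 9.07, 7.92 and 7.98 with nocodazole. Its 3 values up to 4 h were close together, and all later ones were lower. The window difference was -0.64 ± 0.13 (SE, adjusted p = 0.0337), and -0.86 ± 0.11 (SE, adjusted p = 0.0184) after quantile normalization. From 6 to 8 h to 9 and 10 h it differed by a further -0.34 ± 0.15 (SE, adjusted p = 0.912), which did not pass. A dimmer probe set of POLA2 differed by -0.06 between the windows, and with the mean of both the difference was -0.35 (adjusted p = 0.119).

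POLA1, the catalytic subunit, was at 7.15, 7.02, 6.16, 6.84, 6.99, 6.47, 6.79 and 7.26 with DMSO and at 6.44, 6.68, 4.91 and 4.52 with nocodazole. PRIM1, the subunit of primase that makes the RNA primer, was at 11.03, 10.81, 10.98, 11.07, 10.53, 10.27, 10.39 and 10.92 with DMSO and at 10.32, 10.34, 9.67 and 9.51 with nocodazole. PRIM2, the large primase subunit, was at 10.29, 10.11, 10.03, 9.99, 9.93, 9.89, 9.72 and 9.82 with DMSO and at 9.72, 10.01, 9.39 and 9.24 with nocodazole. None of the 3 passed a test over the DMSO times as deposited. PRIM1 and PRIM2 did over the course after quantile normalization (adjusted p = 0.0317 and 0.00637). PRIM1 had its highest value at 6 h as deposited, and at 0 h after quantile normalization (11.09, against 10.97 at 6 h). PRIM2 has a near-identical copy in the genome, so its probe set may not measure this gene alone.

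The replicative polymerases themselves gave few calls. In polymerase delta no member passed over the DMSO times as deposited with all 8 arrays and a minimum of 5. POLD1, its catalytic subunit, was at 9.96, 9.89, 9.68, 9.53, 9.70, 9.46, 9.53 and 9.76 with DMSO and at 9.50, 9.51, 9.24 and 9.09 with nocodazole. Its window difference passed after quantile normalization, at -0.49 ± 0.11 (SE, adjusted p = 0.0298), and not as deposited, at -0.28 ± 0.14 (SE, adjusted p = 0.249). POLD2, a further subunit, was at 10.97, 10.87, 11.01, 10.82, 10.99, 10.76, 10.87 and 11.38 with DMSO. With nocodazole it was at 10.85, 10.86, 10.49 and 10.80. POLD3, the subunit that also serves break-induced replication, had the widest DMSO range of the members. It was at 8.27, 8.81, 6.27, 6.99, 7.34, 6.55, 7.44 and 8.92 with DMSO and at 6.08, 6.49, 5.29 and 4.83 with nocodazole. Its values up to 4 h overlapped those from 6 to 8 h, since the 4 h value was the lowest of the DMSO course, and the window difference was -0.82 ± 0.63 (SE, adjusted p = 0.449). Its course passed after quantile normalization (adjusted p = 0.0383), and as deposited with a minimum of 7 or without the 4 h array. A second, dimmer probe set of POLD3 differed by -0.01 between the windows.

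Polymerase epsilon gave no call in any of the 5 comparisons on either scale with all arrays. POLE2, its second subunit, was at 9.89, 9.84, 9.38, 9.68, 9.93, 9.83, 9.99 and 10.34 with DMSO and at 9.78, 9.98, 9.43 and 9.47 with nocodazole. POLE4, a small histone-fold subunit, was at 6.51, 6.56, 6.54, 6.52, 6.62, 6.27, 6.34 and 6.59 with DMSO and at 6.54, 6.55, 6.56 and 6.59 with nocodazole. POLE, the catalytic subunit, stayed between 9.56 and 9.87 with DMSO, and POLE3, the partner of POLE4, between 12.37 and 12.63. The median span of the fitted curves was 0.20 for these 4 genes, against 0.74 for the 6 clamp and loader genes. This does not show that their levels were constant, since the SE of their window differences was 0.09 to 0.18.

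**Figure D3:**
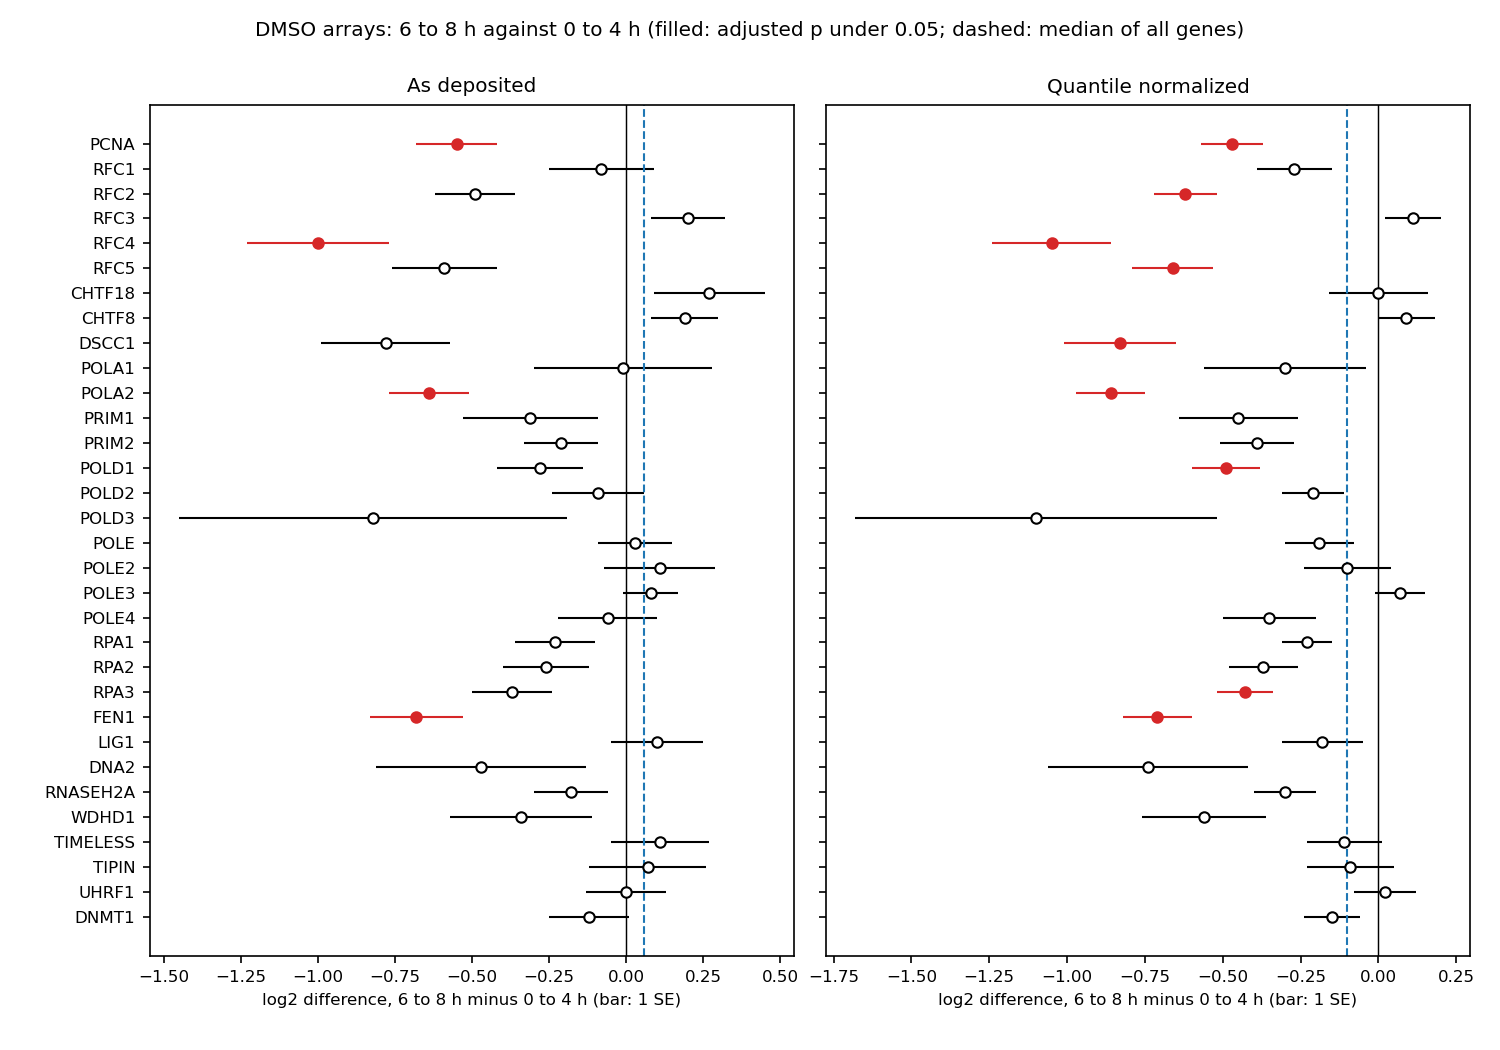
Difference in mean log2 signal between 6 to 8 h and 0 to 4 h with DMSO (horizontal axis) for each kept member (vertical axis), as deposited and quantile normalized. Bars are 1 SE, red filled points have an adjusted p under 0.05, and the dashed line is the median of all genes, 0.06 as deposited and -0.10 after quantile normalization. The 4 red points as deposited are PCNA, RFC4, POLA2 and FEN1, and RFC3 lies on the other side of 0 from RFC2, RFC4 and RFC5.

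The 3 subunits of RPA, which coats single-stranded DNA, were each lower at 6 to 8 h with no overlap. RPA1, the large DNA-binding subunit, was at 12.74, 12.73, 12.56, 12.51, 12.45, 12.38, 12.35 and 12.83 with DMSO and at 12.47, 12.30, 11.98 and 12.03 with nocodazole. RPA2, the middle subunit that checkpoint kinases phosphorylate, was at 11.46, 11.20, 11.19, 11.11, 10.97, 11.00, 10.88 and 11.33 with DMSO and at 10.96, 10.94, 10.73 and 10.82 with nocodazole. RPA3, the smallest, was at 11.90, 11.88, 11.92, 11.73, 11.56, 11.31, 11.37 and 11.65 with DMSO and at 11.41, 11.42, 11.10 and 10.89 with nocodazole. As deposited the course of RPA3 passed (adjusted p = 0.0476), and it passed in 5 of 14 alternative settings, while that of RPA1 passed without the 10 h array. After quantile normalization all 3 courses passed (adjusted p = 0.0159, 0.0141 and 0.00145). Another probe set of RPA1 was 0.10 higher at 6 to 8 h, against 0.23 lower for the one used.

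The windows without overlap were counted over all members too. As deposited 11 of 32 members had all 0 to 4 h values above all 6 to 8 h values, against 9.98% of all genes. After quantile normalization 19 of 32 did, against 26.6% of all genes. As deposited the 11 were PCNA, RFC2, RFC4, RFC5, DSCC1, POLA2, PRIM2, RPA1, RPA2, RPA3 and FEN1.

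Among the genes of Okazaki fragment maturation, FEN1 fell and the others did not pass between the windows. FEN1, the nuclease that removes the flap at the end of a fragment, was at 13.01, 12.96, 12.81, 12.51, 12.23, 11.99, 12.03 and 12.40 with DMSO and at 12.07, 11.85, 11.67 and 11.86 with nocodazole. The window difference was -0.68 ± 0.15 (SE, adjusted p = 0.0395), and -0.71 ± 0.11 (SE, adjusted p = 0.0184) after quantile normalization. Its other probe set differed by -0.52. LIG1, the ligase that seals the nick, was at 7.67, 7.69, 7.66, 7.65, 7.99, 7.69, 7.76 and 7.93 with DMSO and at 7.63, 7.68, 6.58 and 6.36 with nocodazole. FEN1 minus LIG1 went from 5.33 at 0 h to 4.24 at 7 h and 4.46 at 10 h on the same arrays with DMSO. With nocodazole this difference was 4.44, 4.17, 5.09 and 5.49. The pair was chosen after the values were seen and was not tested.

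DNA2, a nuclease and helicase for long flaps, was at 7.99, 7.85, 6.58, 7.03, 7.08, 6.89, 6.77 and 6.99 with DMSO and at 5.99, 6.80, 5.33 and 4.45 with nocodazole. The values at 0 and 2 h stood above all others, and the course passed after quantile normalization (adjusted p = 0.00777), and as deposited without the 4 h array but not with it. RNASEH2A, the catalytic subunit of the enzyme that removes ribonucleotides from DNA, was at 11.10, 10.95, 11.04, 11.02, 10.84, 10.70, 10.82 and 10.99 with DMSO and at 10.81, 10.80, 10.01 and 10.04 with nocodazole. Its course passed after quantile normalization (adjusted p = 0.0406).

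In the group that protects the fork, TIPIN changed over the DMSO course and was highest at 10 h. WDHD1 was highest at 0 h on the probe set used. TIPIN, the partner of TIMELESS, was at 10.29, 10.42, 10.25, 10.23, 10.49, 10.43, 10.62 and 11.35 with DMSO and at 10.19, 10.20, 9.76 and 9.74 with nocodazole. Its course passed on both scales (adjusted p = 0.0232 and 0.00358), and the fitted curve spanned 0.97. Its difference from 6 to 8 h to 9 and 10 h, 0.60 ± 0.21 (SE, adjusted p = 0.912), did not pass, nor did 0.53 ± 0.15 (SE, adjusted p = 0.487) after quantile normalization. Without the 10 h array the span of the course was 0.317 (adjusted p = 0.375), so the call rests on that array. TIMELESS, which forms the fork protection complex with TIPIN, was between 9.18 and 9.75 with DMSO and passed no test. WDHD1, the human Ctf4 protein that links polymerase alpha to the helicase, was at 9.86, 9.81, 9.02, 9.23, 9.38, 9.05, 9.39 and 9.65 with DMSO and at 8.99, 9.03, 8.16 and 8.14 with nocodazole. Its course passed after quantile normalization (adjusted p = 0.0104). A dimmer probe set of WDHD1 was also highest at 0 h with DMSO, at 5.99. Another was highest at 10 h, at 8.24 against 7.38 at 0 h. CLSPN, the checkpoint mediator Claspin, was not kept.

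**Figure D4:**
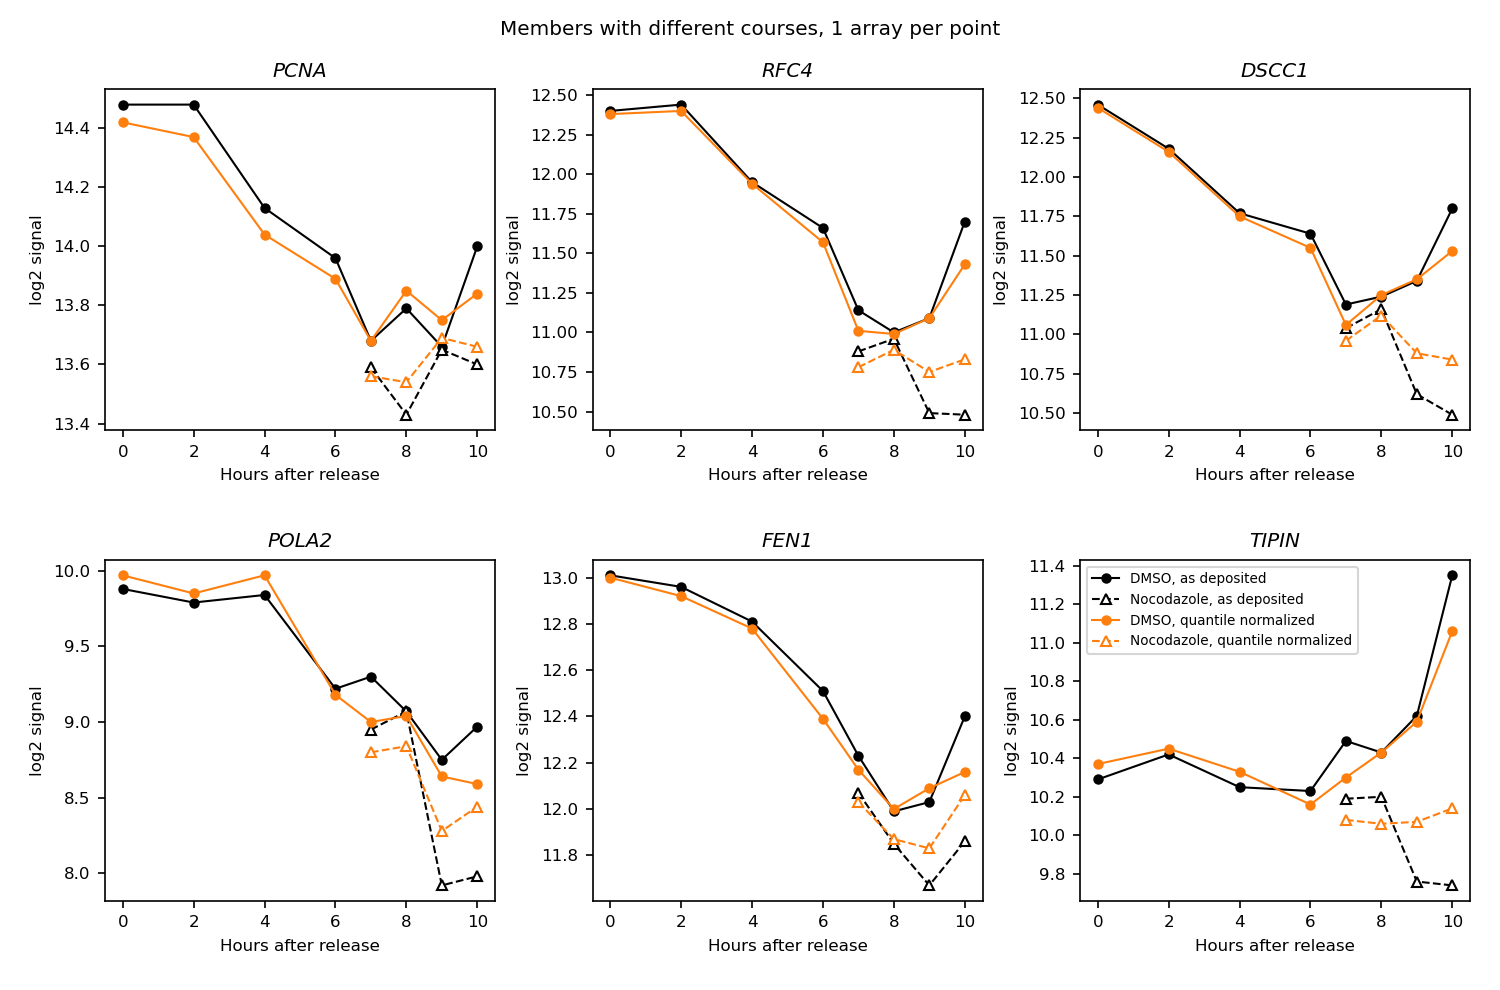
Log2 signal (vertical axes, each with its own range) against hours after release (horizontal axes) for 6 members, with DMSO (filled circles) and nocodazole (open triangles), as deposited (black) and quantile normalized (orange). Each point is 1 array. PCNA, RFC4, DSCC1 and FEN1 drop to 7 or 8 h and are higher at 10 h, POLA2 stays low, and TIPIN is highest at 10 h.

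The courses of the methylation pair passed the test after quantile normalization and not as deposited with all 8 arrays. UHRF1, which recognizes hemimethylated DNA behind the fork, was at 12.82, 12.94, 12.60, 12.79, 12.76, 12.82, 12.91 and 13.34 with DMSO and at 12.72, 12.72, 12.64 and 12.51 with nocodazole. DNMT1, the maintenance methyltransferase, was at 12.49, 12.23, 12.16, 12.20, 12.19, 12.11, 12.11 and 12.47 with DMSO and at 12.21, 12.13, 12.25 and 12.23 with nocodazole. The adjusted p of the courses after quantile normalization was 0.0136 and 0.0335, and as deposited UHRF1 also passed with a minimum of 7 or without the 4 h array. UHRF1 was highest at 10 h and DNMT1 at 0 h.

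A dip at 4 h touched POLA1, POLD3, DNA2, WDHD1 and POLE2, with log2 signals of 6.16, 6.27, 6.58, 9.02 and 9.38 on that array. In each the 4 h value was the lowest of the 8 DMSO arrays as deposited. After quantile normalization this held for POLA1, POLD3 and POLE2, while DNA2 was lowest at 9 h and WDHD1 at 8 h. The 18S control probe sets were high on that array alone, and the part of this in the dip was not tested. In all, 9 of 32 members (28.1%) had their lowest DMSO value at 4 h as deposited, as had 21.6% of all genes. The rest of these 9 were CHTF8, POLE3, TIMELESS and UHRF1. PCNA, RFC4, DSCC1 and FEN1 had their lowest value at 7 to 9 h.

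From 6 to 8 h to 9 and 10 h with DMSO no member passed, and neither did any other gene on either scale (background 0% as deposited and 0% after quantile normalization). At an unadjusted p under 0.05, limma gave 4 members on each scale, against 470 genes (5.15%) as deposited and 735 (8.05%) after quantile normalization. These members were RFC1, TIPIN and UHRF1, which were higher, and POLA2, which was lower. The median member difference was 0.11 (all genes 0.04) as deposited and 0.04 (all genes -0.03) after quantile normalization, and it was -0.0386 without the 10 h array as deposited. All 32 members were higher at 10 h than at 9 h as deposited, as were 84.3% of all genes. After quantile normalization 20 members were, against 47.5% of all genes.

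With nocodazole, most fork genes were lower than with DMSO at the same hour, and the difference grew at 9 and 10 h. As deposited the median member difference was -0.15 at 7 h, -0.01 at 8 h, -0.47 at 9 h and -0.82 at 10 h, beside -0.09, 0.08, -0.25 and -0.61 for all genes. After quantile normalization the members stood at -0.10, -0.07, -0.25 and -0.18, beside 0.00, -0.02, 0.01 and 0.00 for all genes. At 10 h, 32 of 32 members were lower as deposited (84.2% of all genes) and 22 of 32 after quantile normalization (49.7% of all genes). In the comparison over the 4 hours with the hour as a block, 0 members passed on either scale, where 0% of all genes passed as deposited and 0.394% after quantile normalization. At an unadjusted p under 0.05, limma gave 11 members as deposited (10.4% of all genes) and 17 after quantile normalization (17.8% of all genes). Without the 8 h arrays of both treatments, DNA2, POLA1 and POLD3 passed, and the share of all genes that passed then is not given here. With nocodazole at 10 h these genes were at 4.45, 4.52 and 4.83 as deposited, under the minimum of 5, so their sizes are uncertain. The 4 nocodazole values lay below the 4 DMSO values at 7 to 10 h in 10 of 32 members as deposited (7.16% of all genes) and in 10 after quantile normalization (5.78%), where POLE4 alone lay wholly above (4.53% of all genes). As deposited, the other kept probe sets of POLE4 differed by -0.76 and 0.68 with nocodazole, with highest signals of 5.68 and 5.11. The probe sets of this gene thus differ in sign.

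The test of whether the nocodazole difference itself changed from 7 and 8 h to 9 and 10 h called 7 members lower as deposited, against 10.3% of all genes called lower, and 4 after quantile normalization, against 3.8%. POLD3 and POLA1 had the largest changes, -2.46 ± 0.57 (SE, adjusted p = 0.0199) and -2.14 ± 0.42 (SE, adjusted p = 0.0122) as deposited, and both also passed after quantile normalization. For POLD3 nocodazole minus DMSO was -1.25, -0.06, -2.14 and -4.08 at 7, 8, 9 and 10 h, and for POLA1 it was -0.55, 0.21, -1.88 and -2.74. Signals under 5, the minimum used to keep a probe set, make these sizes uncertain: both genes were under it with nocodazole at 10 h, and POLA1 also at 9 h. The dimmer probe set of POLD3 did not show this, and with the mean of both the change was -0.778 (adjusted p = 0.16).

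The other calls as deposited were WDHD1 at -1.16 ± 0.32 (SE, adjusted p = 0.0365), LIG1 at -1.19 ± 0.36 (SE, adjusted p = 0.0499), PRIM1 at -0.99 ± 0.30 (SE, adjusted p = 0.0494), RNASEH2A at -0.92 ± 0.25 (SE, adjusted p = 0.0362) and DSCC1 at -0.90 ± 0.26 (SE, adjusted p = 0.0421). The median member changed by -0.60 as deposited and -0.16 after quantile normalization, where the median of all genes was -0.44 and 0.01. After quantile normalization only DSCC1, at -0.47 ± 0.12 (SE, adjusted p = 0.0478), passed among these 5, and RPA1 passed at -0.34 ± 0.09 (SE, adjusted p = 0.0486). Leaving out an hour left 1 nocodazole array in its window, so only sizes are given for this. As deposited the median member change was -0.674 without the 7 h arrays and -0.556 without the 8 h arrays. It was -0.783 without the 9 h arrays and -0.433 without the 10 h arrays. The nocodazole arrays at 9 and 10 h have the lowest median signals of the 12, and how much of the differences this carries was not tested beyond the quantile normalization. With each gene's mean over the arrays removed, these arrays correlated as deposited at 0.838 with each other. With the other arrays they correlated at -0.476 to 0.003, and the part of this in the calls was not tested. PCNA, with a change of 0.02 ± 0.19 (SE, adjusted p = 0.955), and DNMT1, with -0.07 ± 0.22 (SE, adjusted p = 0.845), did not pass. These comparisons share the DMSO arrays at 7 to 10 h with the DMSO course.

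**Figure D5:**
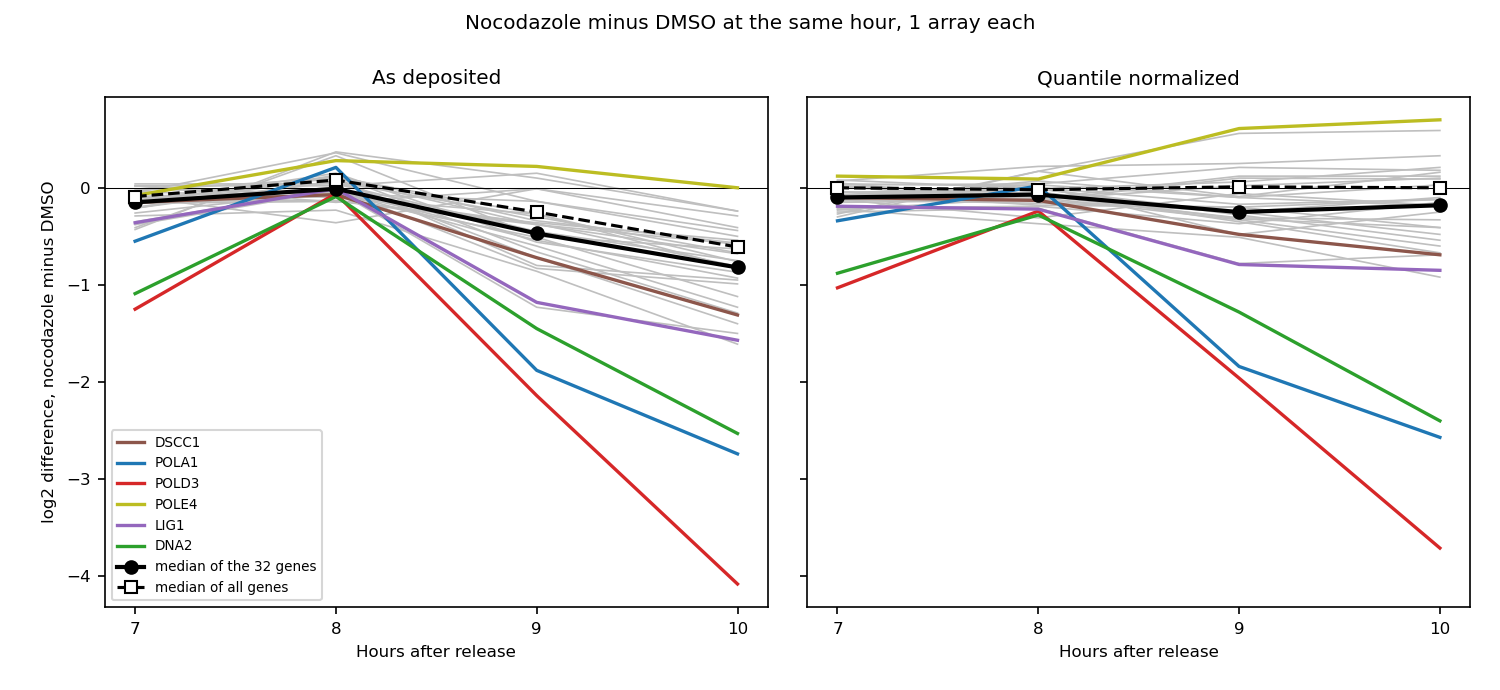
Log2 signal with nocodazole minus that with DMSO at the same hour (vertical axis) for each hour from 7 to 10 h (horizontal axis), as deposited and quantile normalized, with 1 array per condition. Grey lines are single members, coloured lines the named ones, the solid black line the median of the 32 members and the dashed line the median of all genes. As deposited both medians drop at 9 and 10 h, to -0.82 and -0.61, while after quantile normalization all genes stay at 0 and POLD3, POLA1 and DNA2 remain far below the others. With nocodazole at 10 h the log2 signals of POLD3, POLA1 and DNA2 were under 5 on both scales.

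The other genes of DNA replication were counted by list, with the same fits. Of 27 genes for the helicase, origin licensing and firing, 14 passed over the DMSO course as deposited (21.8% of all genes) and 18 after quantile normalization (40.1%). From 0 to 4 h to 6 to 8 h 0 fell and 2 rose as deposited (0.635% and 5.41% of all genes), DBF4, the activator of the CDC7 kinase, by 0.68 ± 0.16 (SE, adjusted p = 0.0433) and ORC5, a subunit of the origin recognition complex, by 0.99 ± 0.19 (SE, adjusted p = 0.0306). After quantile normalization 7 fell and 1 rose (4.6% and 5.08% of all genes), with CDC45, a helicase component, at -1.05 ± 0.21 (SE, adjusted p = 0.0253). Of 9 kept genes of nucleotide supply 4 passed over the course as deposited and 6 after quantile normalization, and of 8 genes of chromatin assembly 5 and 6, beside the same shares of all genes. Neither list had a call between the windows as deposited. After quantile normalization 2 genes of each fell, among them RRM1, the large subunit of ribonucleotide reductase, at -0.49 ± 0.10 (SE, adjusted p = 0.0274) and CHAF1B, a subunit of the CAF-1 histone chaperone that PCNA recruits, at -1.03 ± 0.22 (SE, adjusted p = 0.0294). The median window differences of the 3 lists as deposited were -0.16, -0.20 and -0.12, beside -0.19 for the fork genes.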

How the data were processed

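RNA of 12 samples was hybridised to 12 Affymetrix U133 Plus 2.0 arrays. The authors summarised each probe set with GC-RMA (version not given in the sources used here) and deposited one value per array, which the range of the values shows to be log2 signal. The sources used here do not say if a quantile step was part of it. Of the table's columns, 12 were used and 0 belonged to other samples. Of 54675 probe sets, 41097 had 1 gene symbol, 1801 several and 11777 none. The filter and the choice of probe set gave 15030 probe sets and 9130 genes. No member needed an older symbol.

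All 9130 genes were fitted in limma 3.58.1 (R 4.3.3), letting the variance prior follow intensity, and p-values were adjusted by Benjamini-Hochberg. Fits used a natural spline of time with 3 degrees of freedom, window means, and, for nocodazole, the hour as a block. Signals of different probe sets are not compared as levels. In simulation, 26 to 95 of 100 changes of 1 on the log2 scale were recovered, the fewest for the change of the nocodazole difference, and 97 to 100 of 100 changes of 2, with 8 to 15 false calls. The simulated arrays had independent noise around flat gene means and, apart from the changes put in, no shifts between arrays. These counts therefore need not hold for the real arrays. Alternatives were quantile normalization, no filter, a minimum of 7, averaging the probe sets of each gene, no trend, 2 degrees of freedom, no block and leaving out each array or hour. Every kept member is named. Values on every array are given for members called in any comparison on either scale, for the 2 of each role with the widest DMSO range, and for RFC3, chosen after its values were seen. The members and lists were chosen with earlier results of these data known. Python 3.11.15, pandas 2.3.3 and matplotlib 3.10.9 were used. The number of arrays limits the precision.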

Additional observations from a re-analysis of the deposited data

Results flagged for a closer look

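In 7 members the difference between nocodazole and DMSO was not the same late (9 and 10 h) as early (7 and 8 h) as deposited, by the interaction test in limma over all 9130 genes, of which 10.3% were called lower. The changes on the log2 scale were -0.90 for DSCC1 (adjusted p = 0.0421), -2.14 for POLA1 (adjusted p = 0.0122), -0.99 for PRIM1 (adjusted p = 0.0494), -2.46 for POLD3 (adjusted p = 0.0199), -1.19 for LIG1 (adjusted p = 0.0499), -0.92 for RNASEH2A (adjusted p = 0.0362) and -1.16 for WDHD1 (adjusted p = 0.0365). In each, the 9 and 10 h differences were both below the 7 and 8 h differences. After quantile normalization DSCC1, POLA1 and POLD3 passed again, and PRIM1, LIG1, RNASEH2A and WDHD1 did not. Over all genes the median change was -0.44 as deposited and 0.01 after quantile normalization.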

How the results depend on the processing

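Each comparison was repeated with another normalization, filter, probe set rule or variance prior, and without each array or hour. Over the DMSO course PCNA, RFC4, DSCC1 and FEN1 passed in all 14 alternatives, and the count of members called was 21 after quantile normalization and 5 to 12 when an array was left out. The count from 0 to 4 h to 6 to 8 h was 9 after quantile normalization, 0 with no filter, 1 (POLA2) with no intensity trend and 0 to 7 when an array was left out. The 4 called members kept their sign in all 13 alternatives. The median difference from 6 to 8 h to 9 and 10 h ranged from -0.0386 to 0.274 when an array was left out. Over the 4 nocodazole hours the count was 0 to 3 when an hour was left out. For the change of the nocodazole difference the count was 11 at a minimum of 7, 13 with no filter, 4 with no intensity trend and 4 after quantile normalization. The median member change was -0.16 after quantile normalization, and -0.783 to -0.433 as deposited when an hour was left out. Shares of all genes are given only for the main setting and quantile normalization, and the genes tested differ with the filter. The other counts therefore describe the calls alone. The causes were not tested. No paired analysis was possible because the replicate number is 1 throughout and marks no pairs. Nocodazole and DMSO arrays were paired by hour instead, and without that block 0 members passed as well. With 1 array per condition, an array that stands apart cannot be told apart from its hour, and signals near a log2 value of 5 give uncertain sizes.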
